A study of Mus musculus with 11 samples.

Results

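The heart stores energy for contraction as phosphocreatine, and 7 genes that make, import and use creatine were examined in the left ventricle of 11 mice, out of 25006 genes in the count files. The genes were matched by symbol. They are Gatm and Gamt, which encode the enzymes of creatine synthesis, Slc6a8, which encodes the creatine transporter, and the creatine kinase genes Ckm, Ckb, Ckmt1 and Ckmt2. The list was drawn up by function, but it was chosen by someone who already knew the levels of these genes in the 4 groups, and the lower Gatm in infarcted Vegfc-deficient hearts was part of what was known. Levels and differences of the 7 genes are therefore a description, and no p-value is given for them between genotypes after myocardial infarction (MI). Their p-values and calls for MI against naive are no independent evidence either, since those levels were known too.

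The study asked how loss of Vegfc in myeloid cells affects the heart after MI. MI was produced by permanently tying off the left anterior descending coronary artery, and infarcted ventricle was taken 9 days later by the paper's methods. The paper's results text gives 1 week. Naive mice had no MI, and ventricle of like size and position was taken. Vegfc-deficient mice were Vegfc fl/fl and carried LysMCre, which deletes the floxed gene in macrophages and monocytes and can also do so in neutrophils. Control mice are Vegfc fl/fl by the genotype field of the labels but LysMCre mice by the extraction protocol, and the labels do not settle which holds. The groups were naive control (n = 2), naive Vegfc-deficient (n = 3), MI control (n = 3) and MI Vegfc-deficient (n = 3), with 1 mRNA library per mouse. Ages were not given in the sources used here.

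Libraries held 10824989 to 26782728 counts, and a detection floor of 3 counts equalled 0.101 to 0.363 CPM (counts scaled to library size with TMM factors), which covers counting error only. Vegfc lay at 21.9 to 45.5 CPM in the control and at 22.4 to 34.5 CPM in the Vegfc-deficient libraries, and these ranges overlapped. Lyz2, into which LysMCre is inserted, measured 2121 and 2282 CPM in the naive and 4538 to 5380 CPM in the MI control libraries. It measured 72.5 CPM in M150 and 245 CPM in M34, both naive Vegfc-deficient, and 12.4 to 1392 CPM in the MI Vegfc-deficient libraries. The library labelled M149, naive Vegfc-deficient, had 4565 CPM of Lyz2, more than either naive control, so the log2 fold changes that rest on M149 are also given without it. Xist lay at 188 to 403 CPM in all MI libraries and at 0.624 to 11.8 CPM in all naive libraries, so sex and MI cannot be told apart. The cardiomyocyte markers identified all naive libraries as heart muscle, with 10 of 10 markers found and a summed level of 76781 to 107416 CPM. In the MI libraries the sum was 2766 to 26946 CPM, and the sum of 8 fibroblast markers went from 4828 to 6730 CPM in naive libraries to 29965 to 47562 CPM in MI libraries. In bulk tissue, fewer cells of a type and less RNA per cell cannot be told apart.

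Creatine is made in a pair of steps. Glycine amidinotransferase (Gatm) moves an amidino group from arginine to glycine, and guanidinoacetate methyltransferase (Gamt) then methylates the product with S-adenosylmethionine. Most of this occurs in kidney and liver, and heart muscle takes up creatine from blood through Slc6a8. Creatine kinases move phosphate between ATP and creatine. The mitochondrial enzymes, Ckmt2 of striated muscle and the more widespread Ckmt1, charge creatine at the site of ATP production. The cytosolic M chain (Ckm) and B chain (Ckb) recharge ADP where ATP is spent, and M and B chains pair into dimers.

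Because Ckm and Ckmt2 were lower and Ckb and Gatm higher after MI, the DNA just before their RefSeq start sites is shown, from GRCm38.p6 and read 5′ to 3′ on the strand of each gene, up to the first annotated exon base. The Ckm window is chr7:19410844-19411024 (+ strand). It lies inside the gene as GENCODE draws it, between exons of a longer transcript. The Ckmt2 window is chr13:91876886-91877135 (− strand), the Ckb window chr12:111672339-111672588 (− strand) and the Gatm window chr2:122611304-122611527 (− strand). Capitals mark matches on either strand to the E-box CANNTG, the TATA box TATAAA, the MEF2 motif, the estrogen-related receptor element AAGGTCA or the GC box GGGCGG.
Ckm: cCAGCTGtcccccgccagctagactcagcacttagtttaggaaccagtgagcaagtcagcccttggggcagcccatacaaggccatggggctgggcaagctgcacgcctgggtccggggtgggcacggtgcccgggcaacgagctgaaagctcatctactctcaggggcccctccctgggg
Ckmt2: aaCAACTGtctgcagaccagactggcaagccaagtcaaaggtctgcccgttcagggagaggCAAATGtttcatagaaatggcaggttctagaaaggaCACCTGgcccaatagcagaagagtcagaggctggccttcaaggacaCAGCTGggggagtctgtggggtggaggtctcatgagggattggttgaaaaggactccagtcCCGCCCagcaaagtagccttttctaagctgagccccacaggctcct
Ckb: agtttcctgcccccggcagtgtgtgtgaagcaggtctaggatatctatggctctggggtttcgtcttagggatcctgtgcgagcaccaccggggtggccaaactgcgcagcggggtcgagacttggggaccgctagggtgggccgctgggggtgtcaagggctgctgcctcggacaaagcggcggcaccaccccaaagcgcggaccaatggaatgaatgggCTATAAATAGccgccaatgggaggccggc
Gatm: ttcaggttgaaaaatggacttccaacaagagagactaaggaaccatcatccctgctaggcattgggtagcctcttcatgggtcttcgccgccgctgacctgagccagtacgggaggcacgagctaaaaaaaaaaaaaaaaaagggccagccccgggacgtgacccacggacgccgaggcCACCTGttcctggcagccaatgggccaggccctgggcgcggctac
The Ckb window held a TATA box inside a MEF2 match, so those capitals are a single stretch with 2 overlapping motifs. Of 32851 RefSeq promoter windows of 250 bases, 12.4% held the TATA box and 2.92% the MEF2 motif. Ckmt2 had 4 E-boxes and 1 GC box, which 66.2% and 32.7% of windows of that length held at least once. Ckm had 1 E-box in 181 bases, against 55.7% of windows of that length, and Gatm had 1 in 224 bases, against 62.6%. None of the 4 windows held the estrogen-related receptor element. A match describes letters and is not a binding site. Slc6a8 was not in the promoter table.

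Per length, the muscle isoenzymes stood far above the other genes in naive hearts. Divided by exon length, levels in the 5 naive libraries were 2469 to 3848 CPM per kb for Ckmt2 and 538 to 1117 CPM per kb for Ckm. The next were Slc6a8 at 23.6 to 29.9 CPM per kb and Ckb at 15.1 to 24.6 CPM per kb, which overlapped. Below them came Gamt at 9.52 to 11.1 CPM per kb, Gatm at 3.67 to 8.68 CPM per kb and Ckmt1 at 0.179 to 0.668 CPM per kb, none of which overlapped its neighbour. In the 6 MI libraries the same scale gave 54.4 to 591 CPM per kb for Ckmt2, 12.6 to 185 for Ckm, 26.8 to 50.4 for Ckb, 8.72 to 35.7 for Gatm, 15.3 to 24.2 for Slc6a8, 8.83 to 14.3 for Gamt and 0.332 to 1.22 for Ckmt1. After MI neighbours in that order overlapped down to Slc6a8, whereas Slc6a8, Gamt and Ckmt1 did not overlap, and Ckb lay above Ckm in 1 library, MI control M40.

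**Figure D1:**
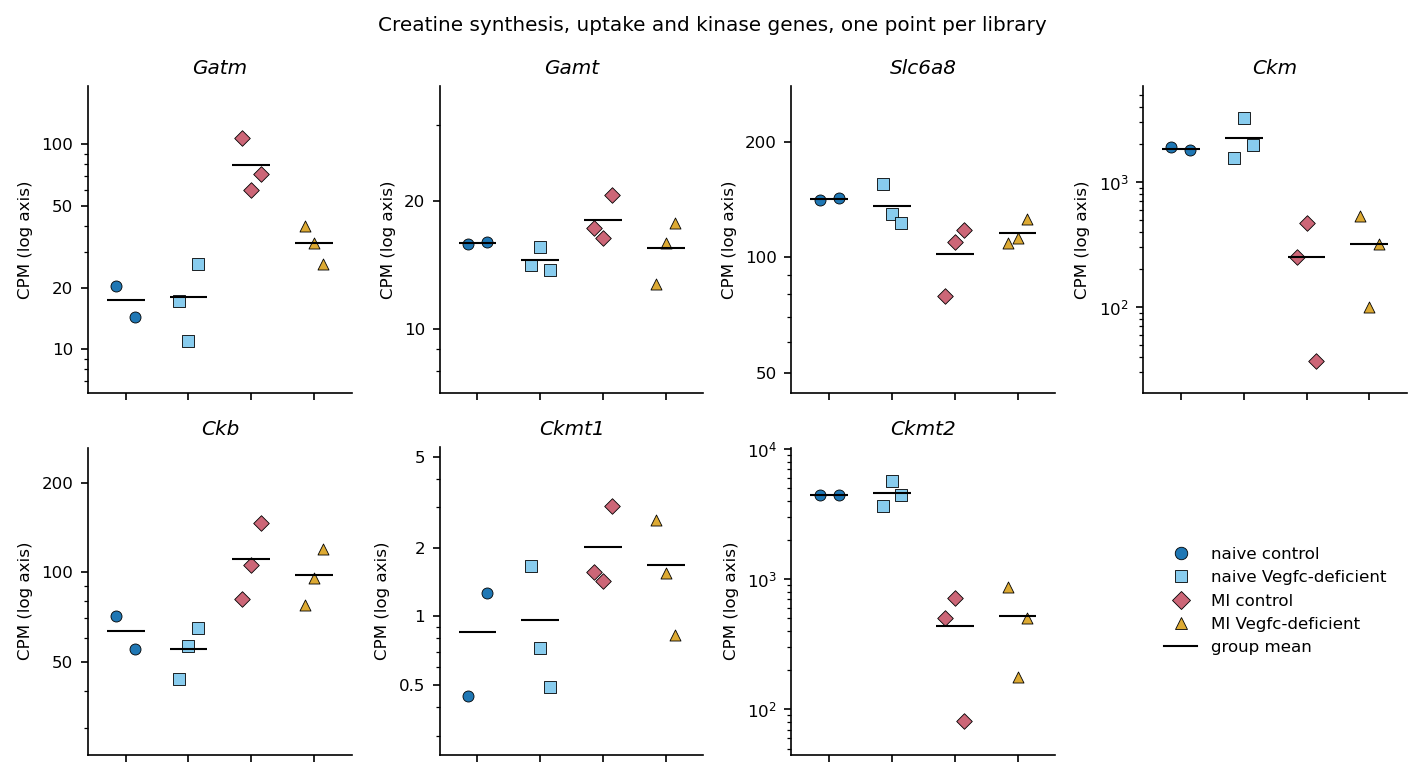
Level of each of the 7 genes in every library, in CPM on a log axis with a scale of its own per panel; each symbol is 1 library and bars are group means. Ckm and Ckmt2 lie lower in all 6 MI libraries than in all 5 naive libraries, and Ckb lies higher.

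After MI, 5 of the 7 genes passed the genome-wide test in control mice, with Gatm and Ckb higher and Ckm, Ckmt2 and Slc6a8 lower (quasi-likelihood test of edgeR, Benjamini-Hochberg adjustment over 14779 genes, threshold 0.05). In Vegfc-deficient mice 4 passed, with Gatm and Ckb higher and Ckm and Ckmt2 lower. These calls are part of the description, since the genes were chosen with their levels known. The background was large. In control mice 26.3% of all genes tested were called higher and 24.1% lower, and in Vegfc-deficient mice 30.0% and 27.7%. The share of all genes whose naive and MI groups did not overlap was not counted. Such gaps in the 7 genes are therefore described only. The median log2 fold change of all genes was 0.13 and 0.10, and that of the 7 genes 0.18 and 0.10. Without M149, 2 of the 7, Ckm and Ckmt2, passed in Vegfc-deficient mice, with log2 fold changes of -3.03 and -3.29. The other values without M149 were 0.83 for Gatm, 0.69 for Ckb, 1.47 for Ckmt1, -0.13 for Slc6a8 and 0.081 for Gamt.

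Ckmt2 (ENSMUSG00000021622, chromosome 13, 91853387 to 91876885), the mitochondrial enzyme of striated muscle, had the largest difference. Its level was 4433 and 4434 CPM in naive control M44 and M45 and 3669, 5718 and 4477 CPM in naive Vegfc-deficient M149, M150 and M34. MI control hearts M006, M38 and M40 had 508, 720 and 80.8 CPM, and MI Vegfc-deficient hearts M35, M900 and M913 had 878, 179 and 501 CPM. Every MI library thus lay below every naive library, and M40 was the lowest. The log2 fold change was -3.34 (SE 0.79, adjusted p = 0.0061 by edgeR with Benjamini-Hochberg adjustment) in control mice, a 10.2-fold lower level, and -3.15 (SE 0.75, adjusted p = 0.00496) in Vegfc-deficient mice. Of all genes tested, 0.995% in control and 1.144% in Vegfc-deficient mice had a lower log2 fold change. The call held in all 19 alternatives in each genotype.

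Ckm (ENSMUSG00000030399, chromosome 7, 19404776 to 19422841), the cytosolic muscle chain, followed the same order of libraries closely. It reached 1911 and 1787 CPM in M44 and M45 and 1566, 3253 and 1972 CPM in M149, M150 and M34. With MI, control M006, M38 and M40 had 252, 470 and 36.8 CPM, and Vegfc-deficient M35, M900 and M913 had 539, 100 and 318 CPM. Again no MI library reached the naive range, and naive M150 was the highest. The log2 fold change was -2.87 in control mice (SE 0.86, adjusted p = 0.0188 by edgeR with Benjamini-Hochberg adjustment) and -2.83 in Vegfc-deficient mice (SE 0.82, adjusted p = 0.0134). In control mice the call was lost without naive control M44, naive control M45 or MI control M006 (adjusted p = 0.0544 to 0.0630), while the log2 fold change stayed between -2.92 and -2.82. An antisense gene, A930016O22Rik, overlaps 451 bases of Ckm exons and was at most at 1.63 CPM.

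Ckb (ENSMUSG00000001270, chromosome 12, 111669361 to 111672338), the brain-type chain that many cell types express, moved the other way. Its level was 71.3 and 55.2 CPM in M44 and M45 and 43.8, 56.3 and 65.1 CPM in M149, M150 and M34. MI hearts had 81.3, 106 and 146 CPM (M006, M38, M40) and 77.6, 95.7 and 120 CPM (M35, M900, M913). All 6 MI libraries lay above all 5 naive libraries, with a small gap between 71.3 and 77.6 CPM. The log2 fold change was 0.81 in control mice (SE 0.28, adjusted p = 0.0318 by edgeR with Benjamini-Hochberg adjustment) and 0.83 in Vegfc-deficient mice (SE 0.24, adjusted p = 0.0147), near the upper quartile of all genes, 0.79 in both. The call was lost in 5 of 19 alternatives in control mice and 2 of 19 in Vegfc-deficient mice. Without M149 the log2 fold change in Vegfc-deficient mice was 0.69 (adjusted p = 0.0505 by the same edgeR test).

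Ckmt1 (ENSMUSG00000000308, chromosome 2, 121357714 to 121363737), the mitochondrial enzyme found outside striated muscle, was close to the detection limit. It had 5 to 17 counts per naive library and 20 to 83 per MI library. This is 0.446 to 1.67 CPM and 0.828 to 3.05 CPM, and these ranges overlapped. In control mice alone they did not, at 0.446 and 1.27 CPM in naive and 1.42 to 3.05 CPM in MI libraries. Its log2 fold change was 1.23 (SE 0.71) in control mice and 0.79 (SE 0.62) in Vegfc-deficient mice, with adjusted p of 0.173 and 0.296 by edgeR with Benjamini-Hochberg adjustment. Leaving out 1 library moved these values between 0.66 and 2.16 in control and between 0.31 and 1.47 in Vegfc-deficient mice, the highest of the latter without M149.

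Within the creatine kinase counts, the B chain took a larger part after MI. Scaled by exon length, Ckb made up 0.390% to 0.672% of creatine kinase counts in the naive libraries, Ckm 17.0% to 22.4% and Ckmt2 77.2% to 82.5%. In MI control M006, M38 and M40 the Ckb share was 6.14%, 5.36% and 42.5%, and in MI Vegfc-deficient M35, M900 and M913 it was 3.34%, 17.5% and 8.46%. Every MI library lay above the naive range, and M40 lay apart from the rest. The mean Ckb share of the MI control group was 18.0% ± 21.2 (SD, n = 3) and fell to 5.75% without M40. Between the Ckm and Ckb chains alone, Ckb held 1.71% to 3.62% in naive libraries and 12.7% to 79.9% in MI libraries. The Ckm share of all 4 genes was 10.7% to 23.6% after MI, which includes the naive range, whereas the Ckmt2 share was 45.8% to 74.8%, below it in all 6. With coding length in place of exon length, a choice made after the annotated transcripts were seen, the naive Ckb share was 0.661% to 1.19% and the MI share 5.48% to 56.3%. The shares are of transcripts per length and carry no information on protein. Since they are parts of a whole, the lower Ckm and Ckmt2 counts enter the Ckb share directly.

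**Figure D2:**
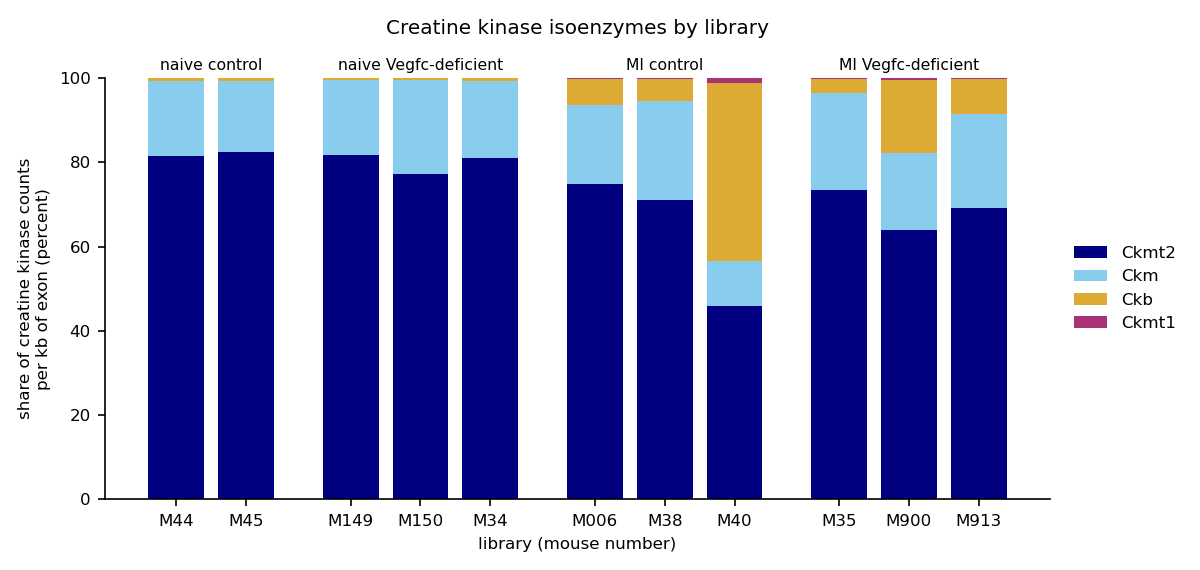
Share of each creatine kinase gene in the creatine kinase counts per kb of exon, 1 bar per library, in percent. Ckb is under 1% in the 5 naive bars and 3.34% to 42.5% in the 6 MI bars, highest in MI control M40.

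The lower Ckm and Ckmt2 levels went with lower cardiomyocyte markers. The summed CPM of 10 cardiomyocyte markers, none of them a creatine gene, was 11286, 15157 and 2766 in MI control M006, M38 and M40 and 26946, 5992 and 12081 in MI Vegfc-deficient M35, M900 and M913. Ckm ranked the 6 MI libraries in the same order as the marker sum, from M40 up to M35, and Ckmt2 did so except that M006 and M913 changed places. Ckm amounted to 1.83% to 3.03% of the marker sum in naive libraries and 1.33% to 3.10% in MI libraries, so the ranges overlapped. As a log2 ratio, Ckm over markers differed by 0.063 between MI and naive control mice and by -0.22 in Vegfc-deficient mice, each within the pooled SD between libraries (0.51 and 0.31). Ckmt2 amounted to 4.54% to 5.32% of the sum in naive and 2.92% to 4.75% in MI libraries. The control groups overlapped, whereas the Vegfc-deficient groups did not, with 4.78% to 5.32% in naive and 2.99% to 4.15% in MI libraries for Ckmt2. Its log2 ratio differed by -0.28 in control mice (pooled SD 0.32) and by -0.56 in Vegfc-deficient mice (pooled SD 0.18). With the median of the markers in place of their sum, the values in Vegfc-deficient mice were -0.21 for Ckmt2 and 0.13 for Ckm, whose sign turned. Relative to the same sum, Ckb went from 0.0524% to 0.0821% in naive libraries to 0.288% to 5.27% in MI libraries. A lower marker sum raises this ratio for any gene that falls less than the sum. The log2 ratio differences in control and Vegfc-deficient mice were 4.35 and 3.67 for Ckb. They were 3.73 and 2.93 for Gamt and 3.07 and 2.62 for Slc6a8, neither of which was called higher in CPM. How much of each difference came from the number of cardiomyocytes was not tested.

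**Figure D3:**
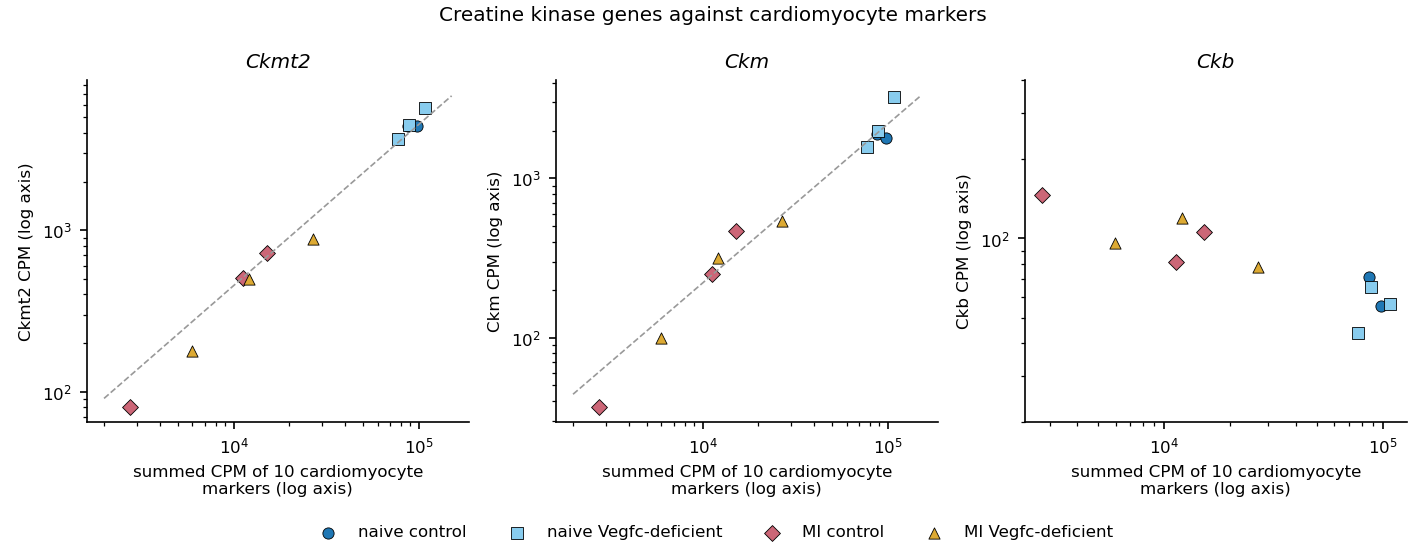
Ckmt2, Ckm and Ckb against the summed CPM of 10 cardiomyocyte markers, 1 symbol per library, log axes; dashed lines in the Ckmt2 and Ckm panels mark the median ratio over the 11 libraries. Ckmt2 lies at 4.54% to 5.32% of the marker sum in naive and 2.92% to 4.75% in MI libraries. Ckm lies at 1.83% to 3.03% and 1.33% to 3.10%. Ckb is highest in MI control M40, the library with the lowest marker sum.

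Markers of other tissues that use creatine were low. The 9 markers of skeletal muscle, which expresses Ckm strongly, summed to 53.9 to 141 CPM in naive and 23.6 to 66.3 CPM in MI libraries. Myl1 alone gave 41.8 to 126 CPM and 9.83 to 49.2 CPM of these sums, and the fast myosins Myh1, Myh2 and Myh4 were at 0 to 0.121 CPM in naive and 0 to 0.484 CPM in MI libraries. Tnnt3 and Pvalb went the other way, from at most 1.57 and 0.326 CPM in naive libraries to at least 2.16 and 1.12 CPM in MI libraries. Of the 3 brown adipocyte markers, the defining gene Ucp1 and Elovl3 were at 0 to 0.235 CPM in all libraries, and Cidea made up nearly all of the sum, at 35.7 to 61.8 CPM in naive and 1.98 to 17.1 CPM in MI libraries. The part of skeletal muscle in the results was not tested.

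Gatm (ENSMUSG00000027199, chromosome 2, 122594467 to 122611303), the first enzyme of creatine synthesis, was the creatine gene that differed most between genotypes after MI. It was at 20.4 and 14.4 CPM in naive control M44 and M45 and at 17.3, 11.01 and 26.0 CPM in naive Vegfc-deficient M149, M150 and M34. Infarcted control hearts M006, M38 and M40 had 107, 59.9 and 71.5 CPM, and infarcted Vegfc-deficient hearts M35, M900 and M913 had 40.3, 33.2 and 26.2 CPM. The MI control libraries lay above all others, and the MI Vegfc-deficient libraries came between them and the naive libraries, with M913 only just above naive M34. In control mice the log2 fold change of MI against naive was 2.19 (SE 0.38, adjusted p = 0.00129 by edgeR with Benjamini-Hochberg adjustment), or 4.56-fold, and the call held in all 19 alternatives. In Vegfc-deficient mice it was 0.86 (SE 0.32, adjusted p = 0.0382 by the same edgeR test), or 1.82-fold, and the call was lost in 5 of 19 alternatives, among them without M149 (0.83, adjusted p = 0.0866).

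Between the genotypes after MI, the Gatm level was 33.2 ± 7.04 CPM (SD, n = 3) in Vegfc-deficient and 79.5 ± 24.6 CPM (SD, n = 3) in control mice, a log2 difference of -1.26 (SE 0.31) that is given without a test. It ran from -1.44 to -0.99 over 19 alternatives. Gatm was the 1 gene of the 7 whose groups did not overlap in this contrast. Of all genes tested, 6.12% had all Vegfc-deficient libraries below all control libraries and 5.99% above. Genome-wide, edgeR called 0 of 14779 genes here (0% of genes; 1173 at an unadjusted p under 0.05), limma-voom 0 and DESeq2 62. For the other genes the log2 difference was -0.22 for Gamt (SE 0.15), 0.18 for Slc6a8 (SE 0.16), 0.33 for Ckm (SE 0.77), -0.19 for Ckb (SE 0.24), -0.28 for Ckmt1 (SE 0.57) and 0.25 for Ckmt2 (SE 0.69). The sign of Ckm and Ckmt2 turned without M40 or without M35. Macrophage markers summed to 2645 to 4728 CPM in MI control and 1921 to 3952 CPM in MI Vegfc-deficient libraries, and fibroblast markers to 29965 to 40149 CPM and 37426 to 47562 CPM. Of 15 marker lists, 14 overlapped between the MI genotypes in their summed level and 1 did not. Red cell markers summed to 1375, 1065 and 804 CPM in MI control M006, M38 and M40 and to 654, 309 and 325 CPM in MI Vegfc-deficient M35, M900 and M913, the same direction as Gatm. In naive libraries, where Gatm was lower, their sum was 1092 to 4383 CPM. The part of these cells in the Gatm difference was not tested.

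**Figure D4:**
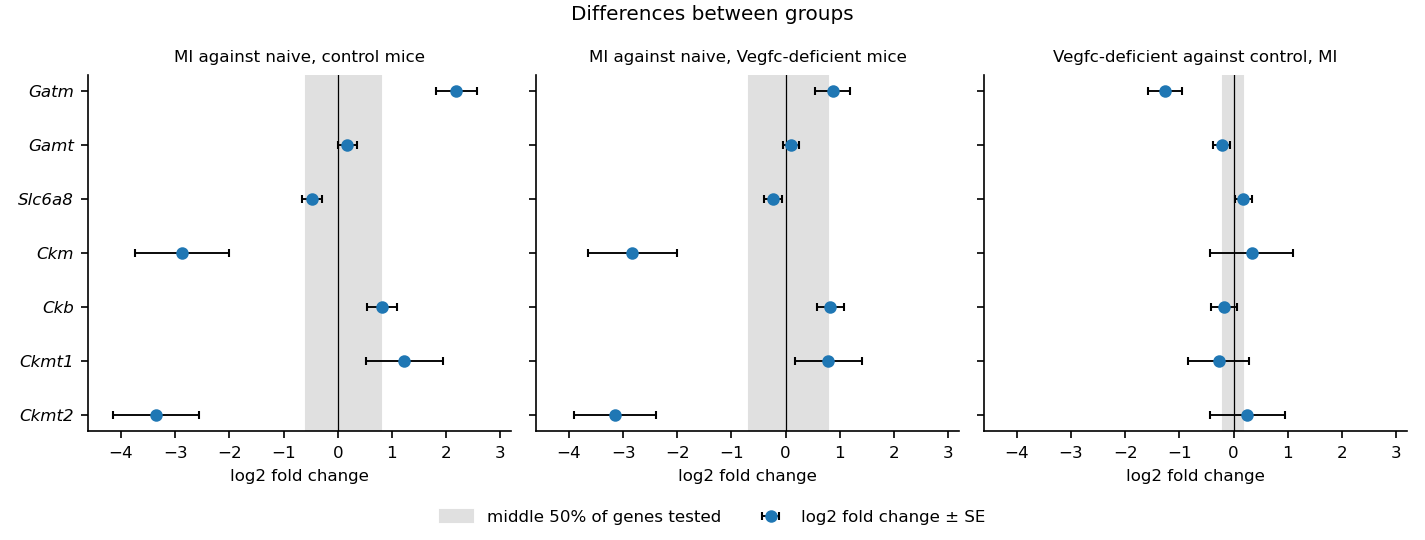
Log2 fold change with its standard error for the 7 genes in 3 contrasts from the edgeR fit of 11 libraries; the grey band spans the middle 50% of all genes tested. Gatm is higher after MI in both genotypes and lower in Vegfc-deficient than in control hearts after MI, while Ckm and Ckmt2 lie far below the band after MI in both genotypes.

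Between naive genotypes the log2 difference of the 7 genes ran from -0.20 for Ckb to 0.29 for Ckm, and 0 of them passed (edgeR with Benjamini-Hochberg adjustment, adjusted p = 1 for each). Genome-wide 0 genes passed (0%; 499 at an unadjusted p under 0.05), against 14 by DESeq2 and 6 by limma-voom. Without M149, whose Lyz2 lay above both naive controls, edgeR called 17 genes and 0 of the 7. The differences of the 7 then ran from -0.52 for Ckmt1, which had been 0.16, to 0.50 for Ckm. For the difference in MI response between genotypes, the interaction term of Gatm was -1.32 (SE 0.48) on the log2 scale. This term ran from -1.60 to -0.96 when 1 library was left out. For the interaction, 0 of 14779 genes passed (0%, 1226 at an unadjusted p under 0.05) by edgeR, against 58 by DESeq2 and 0 by limma-voom.

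Gamt (ENSMUSG00000020150, chromosome 10, 80258151 to 80261012), the second enzyme, was the steadiest of the 7. Its level was 13.8 to 16.0 CPM in the naive and 12.8 to 20.6 CPM in the MI libraries, and the ranges overlapped. In control mice alone they did not, at 15.9 and 16.0 CPM in naive and 16.4 to 20.6 CPM in MI libraries. Naive Vegfc-deficient libraries, at 13.8 to 15.6 CPM, lay below both naive controls, with a log2 difference of -0.14 (SE 0.18) that was not called. How many of all genes had such a gap was not counted. The log2 fold change was 0.18 (SE 0.17) in control and 0.10 (SE 0.16) in Vegfc-deficient mice, with adjusted p of 0.410 and 0.610 by edgeR with Benjamini-Hochberg adjustment. These values depended on scaling. With library totals alone, which raised the median of all genes to 0.57 and 0.59, they were 0.63 and 0.60 and passed, and with the length trend removed they were 0.53 and 0.72 and passed.

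Slc6a8 (ENSMUSG00000019558, chromosome X, 73673150 to 73682502), which carries creatine across the cell membrane, was somewhat lower after MI in control mice. It was at 141 and 143 CPM in M44 and M45 and at 156, 130 and 123 CPM in M149, M150 and M34. The MI levels were 79.5, 110 and 118 CPM (M006, M38, M40) and 109, 112 and 126 CPM (M35, M900, M913). The control groups did not overlap, whereas MI Vegfc-deficient M913 exceeded naive M34. The log2 fold change was -0.47 in control mice (SE 0.18, adjusted p = 0.0483 by edgeR with Benjamini-Hochberg adjustment) and -0.24 in Vegfc-deficient mice (SE 0.16, adjusted p = 0.234). With library totals alone it was -0.030 and 0.26, so the direction was that relative to the other genes, and the call in control mice was lost in 11 of 19 alternatives. The gene lies on the X chromosome, and the sex difference between naive and MI libraries cannot be told apart from MI here.

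The genes most like each creatine gene across libraries are given as a description, by Pearson's r of log2 CPM over the 11 libraries, which share the split between naive and MI hearts. For Ckmt2 they were Chchd10 (r = 0.999), Plin5, Me3, Tnni3 and Mtfp1 (r = 0.998 each). For Ckm they were Car14 (r = 0.994), Plin5, Ckmt2, Eef1a2 and Srl (r = 0.993 each). After group means were taken off, Ckm and Ckmt2 still had r = 0.993, and the first 5 for Ckmt2 were Mtfp1, Rpl3l, Chchd10, Rxrg and Plin5. Thus libraries of 1 group with more Ckm also had more Ckmt2. Ckb was closest to Lrwd1, Ptms, Sphk1, Impdh1 and Rcc1 (r = 0.963 to 0.968), and its r with Ckmt2 was -0.87. Gatm was closest to Cd2ap (r = 0.970), Deaf1, Tmpo, Zfp292 and Stoml1, and within groups to Gm35339, Dgka, Sgsm1, 2700038G22Rik and Zfr2 (r = 0.931 to 0.965). Gamt was closest to Cdk4, Eif4e2, Rnf41, B3galt6 and Nup85 (r = 0.883 to 0.900), and within groups to Sardh (r = 0.982). Each gene named as closest was picked for the highest r among all genes tested, over only 11 libraries. Slc6a8 was closest to Plekhm2, Slc35f6, Ptprn, Fam234a and 2410131K14Rik (r = 0.911 to 0.928). Ckmt1 was closest to Cyp2s1, Lrrn4, Upk3b, Pex26 and Prss12 (r = 0.900 to 0.931), and Upk3b is a mesothelial marker. The summed mesothelial markers were 24.2 to 34.5 CPM in naive and 30.8 to 140 CPM in MI libraries, and their part in Ckmt1 was not tested. The r between Gatm and Gamt, the successive enzymes, was 0.40 over all libraries and -0.49 within groups.

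The remaining genes of the pathway were grouped in 6 lists by function, 71 genes in all, of which 64 could be tested. After MI 6 were called higher and 36 lower in control mice, and 4 and 35 in Vegfc-deficient mice. Over all genes tested, 26.3% were called higher and 24.1% lower in control mice, and 30.0% and 27.7% in Vegfc-deficient mice. These shares are the background for the counts of each list below. The median log2 fold change over the 64 was -0.72 and -0.75, against 0.13 and 0.10 for all genes tested. Without M149, 44 passed in Vegfc-deficient mice in place of 39. All 10 cardiomyocyte markers were called lower in both genotypes, with medians of -3.13 in control and -2.49 in Vegfc-deficient mice. How much of the lower levels in the lists came from the number of cardiomyocytes was not tested.

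Genes that carry ATP, phosphate and other metabolites across the mitochondrial membranes, between which Ckmt2 works, were mostly lower. Of 7 tested, 6 were called lower in control and 7 in Vegfc-deficient mice, with medians of -1.64 and -1.81. The largest difference was in Slc25a4, the heart ADP/ATP exchanger, at 9225 to 15234 CPM in naive and 715 to 2477 CPM in MI libraries (log2 fold change -2.67 and -3.01). Slc25a3, the phosphate carrier, had -2.25 and -2.09, and Vdac1, the outer-membrane channel, -2.16 and -1.90. Slc25a31, an exchanger known from testis, had 1.22 in control mice, where it was not called, and -1.30 in Vegfc-deficient mice. The latter call was lost in 14 of 19 alternatives, and without naive M150, which had 6.05 CPM against 1.57 in M149 and 1.63 in M34, the value was -0.38.

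Genes that anchor creatine kinase or spend its ATP were likewise lower in 10 of 11 in control mice and 9 of 11 in Vegfc-deficient mice, with medians of -2.26 and -1.85. Myom1, an M-line protein at the site where Ckm is bound, had a log2 fold change of -2.39 and -2.01, and Fhl2, a LIM-domain adaptor, -2.39 and -2.72. Atp2a2, the calcium pump of the sarcoplasmic reticulum, had -3.33 and -2.62, and Kcnj11, a subunit of the ATP-sensitive potassium channel, -2.93 and -2.58. The list includes Myh6, which is also 1 of the 10 cardiomyocyte markers. Those markers had medians of -3.13 and -2.49. Myh7, the other cardiac myosin heavy chain, was not called in either genotype (-0.71 and 0.031).

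Among 12 tested enzymes of other phosphotransfer routes, 2 were called higher and 7 lower in control mice, and 2 and 6 in Vegfc-deficient mice, with medians of -0.65 and -0.89. Ak1, the adenylate kinase of muscle cytosol, was at 493 to 683 CPM in naive and 107 to 191 CPM in MI libraries (log2 fold change -1.74 and -1.99). Ak4, a mitochondrial isoform, had -1.70 and -1.66. Ak5, an isoform best known from brain, was called higher in both genotypes. It had 0 to 8 counts per naive library and 87 to 249 per MI library, that is 0 to 0.651 CPM and 4.43 to 9.14 CPM, and no MI library overlapped the naive range. Its fitted fold change depends on the few naive counts and is not given. Ampd2, an AMP deaminase, had 1.12 and 1.21 and was the other gene called higher.

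Of 23 tested genes that supply arginine, glycine and methyl groups, 4 were called higher and 6 lower in control mice, and 2 and 6 in Vegfc-deficient mice, with medians of -0.17 and 0.056. These counts lie near or below the shares over all genes (26.3% and 24.1% in control, 30.0% and 27.7% in Vegfc-deficient mice) and are no result about this list. Ass1, which makes the precursor of arginine, was at 3.01 to 3.75 CPM in naive and 7.40 to 20.9 CPM in MI libraries (log2 fold change 2.25 and 1.97). Gnmt, which spends S-adenosylmethionine on glycine, was at 3.63 to 5.94 CPM in naive and 0.294 to 0.999 CPM in MI libraries (-3.19 and -2.78). Mtr, which remakes methionine, had -1.84 and -1.50. Shmt1, a cytosolic enzyme that converts serine and glycine into each other, had -1.39 and -1.28. Arg2, which competes for arginine, was called higher in control mice (3.23, SE 1.06, adjusted p = 0.0271 by edgeR with Benjamini-Hochberg adjustment) and lost that call in 5 of 19 alternatives. Of the 2 side-route genes, Alpl, tissue-nonspecific alkaline phosphatase, was lower (-1.97 and -1.68) and Slc16a12, a creatine exporter, was not called.

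Of 9 tested regulators of muscle and mitochondrial genes, 0 were called higher and 6 lower in each genotype, with medians of -0.72 and -0.66. Esrra, a nuclear receptor of mitochondrial genes, was at 97.5 to 132 CPM in naive and 20.5 to 43.4 CPM in MI libraries (-1.71 and -2.17). Its coactivator Ppargc1a was at 30.2 to 47.0 CPM and 1.87 to 13.8 CPM (-2.77 and -2.40). Prkaa2, the catalytic subunit of AMP-activated kinase found in muscle, had -2.44 and -1.66, whereas Prkaa1, its widespread counterpart, was not called (0.14 and 0.36). Between genotypes, 0 of the 64 genes passed in MI hearts, in naive hearts or in the interaction (edgeR with Benjamini-Hochberg adjustment), with 3 at an unadjusted p under 0.05 in each.

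**Figure D5:**
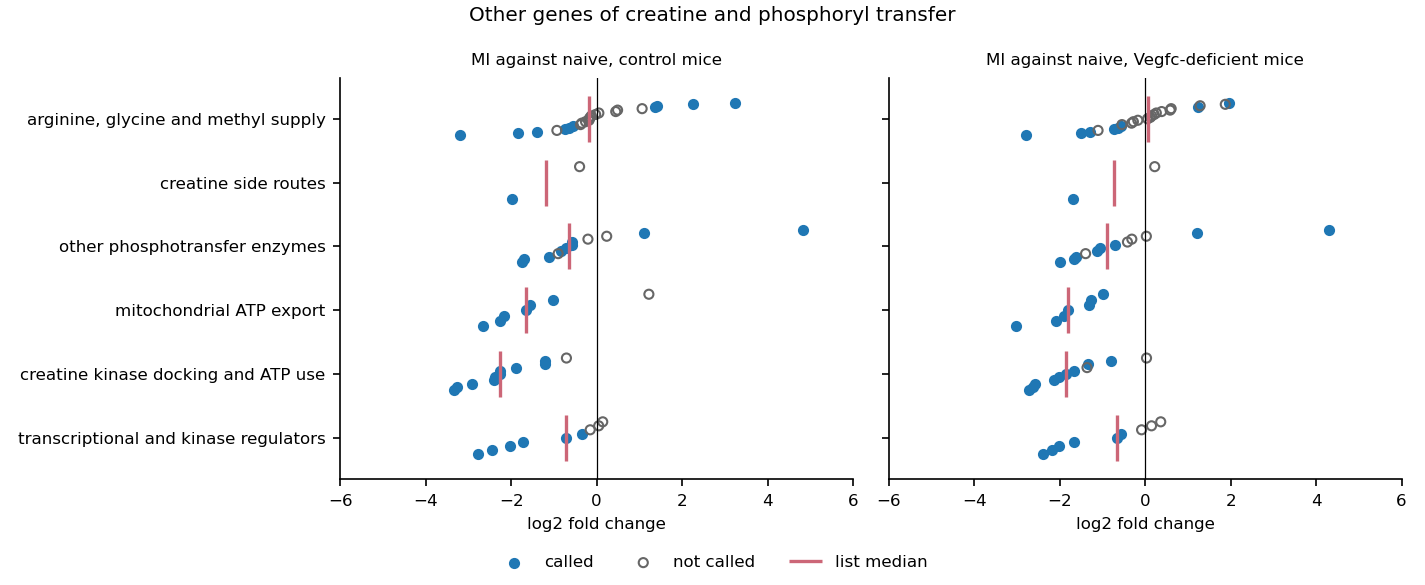
Log2 fold change of MI against naive for each tested gene of 6 functional lists, in control mice (left) and Vegfc-deficient mice (right); filled points were called by edgeR, open points were not, and red bars are list medians. Mitochondrial ATP export and creatine kinase docking lie mostly below 0 in both genotypes, and the single point above 4 is Ak5.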

How the data were processed

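The data were stranded mRNA libraries of mouse left ventricle, 1 per mouse. The authors deposited raw counts per Ensembl gene for 25006 genes. The submitters' processing notes name cutadapt 1.13, STAR, HTSeq 0.6.1p1, DESeq2 1.14.1 and build mm10. How reads with several matches were counted is not given in the sources used here. Of the identifiers, 24991 matched GENCODE M21 (GRCm38), which gave symbols, coordinates and exon lengths. The 13 mitochondrial genes had 0 counts in every library. Of the 2 annotated pseudogenes of the 7 genes, 0 had a row. Promoter sequences were RefSeq's.

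Counts were analysed with edgeR 4.0.16 in R 4.3.3 (filterByExpr by group, TMM, quasi-likelihood test, 11 libraries in 1 fit with 4 group means), with Benjamini-Hochberg adjustment over 14779 genes and a threshold of 0.05. Whether the mice were littermates or processed together is not given, so p-values measure the spread between these libraries. Total counts were 10824989 to 26782728 per library. Scripts were tested on simulated data. The genes, lists and tests were chosen with earlier results of these data known. Named genes were the 7 members, up to 4 genes per list and direction with the lowest p, shown in both contrasts, Vegfc and Lyz2, and the 5 closest genes by r (prior count 2); Slc25a4, Atp2a2, Myh6, Xist and A930016O22Rik were added after their values were seen. A gene that the rule names is not reported here. Alternatives were DESeq2 1.42.0, limma-voom 3.58.1 with quality weights, RLE factors, library totals alone, no filter, mean CPM of 1 or more, removal of the length trend, only the groups compared, and leaving out each library.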

Additional observations from a re-analysis of the deposited data

How the results depend on the processing

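Ckmt2 kept its direction and its call after MI in both genotypes under all 19 alternatives, Ckm did so in Vegfc-deficient mice and Gatm in control mice. In control mice 5 of the 7 genes passed, 3 in a fit of the groups compared alone (Ckm, Ckmt2, Gatm) and 2 to 5 when 1 library was left out; with either naive control library out, Ckmt2 and Gatm passed, and without MI control M006 Ckb, Ckmt2 and Gatm. In Vegfc-deficient mice 4 passed, and 2 to 4 with 1 library out. Over all genes, leaving out 1 library gave 4622 to 7647 calls in control and 6906 to 8560 in Vegfc-deficient mice. The cause of these changes was not tested beyond the smaller number of libraries.

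Between genotypes after MI, DESeq2 called 62 genes, and leaving out 1 library gave 0 to 1 gene by edgeR. Calls of the 7 genes are not given here, since they were chosen with this contrast known. Between naive genotypes DESeq2 called 14 genes, limma-voom 6, the groups compared alone 2, and fits with 1 library left out 0 to 17, the most without M149. For the interaction DESeq2 called 58 and leave-one-out fits 0 to 1. Among the 64 other pathway genes, leaving out 1 library gave 35 to 43 calls in control and 35 to 44 in Vegfc-deficient mice.

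Signs turned as follows. Slc6a8 in Vegfc-deficient mice was 0.26 with library totals alone, and Gamt was -0.012 without MI Vegfc-deficient M913 (range -0.012 to 0.22). Between genotypes after MI, Ckb was 0.0031 by limma-voom and ran from -0.37 to 0.061 with 1 library out, Ckm from -0.28 to 1.19, Ckmt1 from -0.76 to 0.15 and Ckmt2 from -0.36 to 0.87. Gatm between naive genotypes ran from -0.30 to 0.34. Of the pathway genes in control mice, Nme4 was 0.243 with library totals alone and 0.0964 with the length trend removed, and Mef2a was 0.0965 with library totals alone. With the median of the cardiomyocyte markers in place of their sum, the log2 ratio difference in Vegfc-deficient mice was 0.13 for Ckm (leave-one-out range of the sum -0.39 to -0.051) and -0.21 for Ckmt2 (-0.70 to -0.46). In control mice the ranges with 1 library out were -0.22 to 0.39 for Ckm and -0.41 to -0.058 for Ckmt2.

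The mean Ckb share of creatine kinase counts in naive mice was 0.599% in control and 0.499% in Vegfc-deficient mice by exon length, 0.995% and 0.818% without division by length, and 1.06% and 0.871% by coding length, added after the data were seen. With 1 library out it was 0.527% to 0.672% and 0.445% to 0.553%, and in MI hearts 5.75% to 24.3% and 5.90% to 13.0%. No paired analysis was possible because the groups share no replicate numbers. Depth limits Ckmt1 and Ak5, and 2 naive control libraries limit each comparison with them.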
